A study of Homo sapiens with 4 samples.

Results

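The genes of the proteasome were examined in Jurkat T cells treated with the BET inhibitor JQ1, with and without the T-cell activator PHA. Members were chosen by symbol: PSMA, PSMB, PSMC, PSMD, PSME, PSMF or PSMG followed by a number and, at most, 1 further letter. Of the 50868 genes in the deposited files, 50 matched, and 2 of these (PSMA3P and PSMD12P) are named as pseudogenes, which leaves 48 proteasome subunits, assembly factors and regulators. A mean FPKM (counts scaled for gene length and library total) of at least 1 over the libraries was reached by 47 of the 50 members and by 11503 of all genes, and the 47 also had an FPKM of at least 1 in every library.

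Jurkat is an established human T-cell leukemia line, wild type by its label. JQ1 displaces BET proteins from acetylated chromatin, DMSO is its solvent, and PHA is a plant lectin that engages the T-cell receptor. Cells had been treated for 24 h with DMSO, with 0.5 μM JQ1, with DMSO and 150 ng/ml PHA, or with 0.5 μM JQ1 and 150 ng/ml PHA, and these conditions are called DMSO, JQ1, DMSO + PHA and JQ1 + PHA. Each condition had 1 library, 4 in all, so no difference between conditions had a replicate check and none was tested. The intervals given are 95% exact intervals and cover counting error only. All values come from a leukemia line in bulk culture. Fewer cells that express a gene and less of its RNA per cell cannot be told apart there. Values are relative to the total of a library, so lower means a lower share, and a change in total RNA per cell would not be seen.

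The proteasome is the protease that degrades proteins tagged with ubiquitin. Its barrel-shaped core is built of outer alpha rings, which gate the entrance, and inner beta rings, 3 of whose subunits carry the proteolytic sites. A cap of ATPases and lid subunits binds ubiquitin chains, removes them and unfolds the substrate, alternative activators can replace the cap, and dedicated chaperones assemble both parts. In lymphoid cells and under interferon, the immunoproteasome subunits PSMB8, PSMB9 and PSMB10 take the places of the constitutive catalytic subunits and change which peptides are made for presentation on MHC class I. Most subunit genes can be raised together by the transcription factor NRF1 (NFE2L1) when proteasome activity falls short.

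The libraries held 18620954 to 19685401 counts, of which mitochondrial genes took between 6.27% and 7.07%. All 10 T-cell markers passed the filter, and their summed FPKM was between 262.5 and 469.3. CD3E, the epsilon chain of CD3, had FPKM of 67.3 in DMSO, 30.7 in JQ1, 62.00 in DMSO + PHA and 27.7 in JQ1 + PHA. Not all 10 followed it. For JQ1 against DMSO 8 were at least 1.5-fold lower (against 19.3% of all genes) and 1, PTPRC, higher (against 14.8%). With PHA added to both, 7 were lower (against 17.8%) and 0 higher (against 11.7%). Of 14 markers of B, myeloid, erythroid, and stromal or epithelial cells, CD79A alone passed the filter, with FPKM of 7.48 in DMSO, 1.06 in JQ1, 6.33 in DMSO + PHA and 1.01 in JQ1 + PHA. The other 13 stayed below a mean FPKM of 1. CSF1R, HBB and EPCAM had no count and MS4A1 at most 2, so the B-cell list summed to between 1.01 and 7.56 FPKM, nearly all of it CD79A, and the other lists to at most 0.707.

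Proteasome transcripts were lower with JQ1 both without and with PHA, by a small amount that many members shared. Together the 47 members that passed the filter held 126531 counts in DMSO, 109723 in JQ1, 124227 in DMSO + PHA and 101288 in JQ1 + PHA, which were 0.672% (95% Wilson interval 0.669 to 0.676), 0.558% (0.554 to 0.561), 0.631% (0.628 to 0.635) and 0.544% (0.541 to 0.547) of the library totals. The log2 ratio of the summed counts was -0.27 (-0.28 to -0.26) for JQ1 against DMSO and -0.21 (-0.23 to -0.20) for JQ1 + PHA against DMSO + PHA, or 1.21-fold and 1.16-fold lower. The median log2 ratio of FPKM, after adding 0.1, over the 47 members was -0.32 without PHA and -0.24 with PHA, where the median over all 11503 genes was -0.01 and -0.02. These 2 JQ1 comparisons share no library.

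The shift was broad rather than deep. A log2 ratio below 0 was found for 37 of 47 members (78.7%, against 50.8% of all genes) without PHA and for 38 of 47 (80.9%, against 51.5%) with PHA, and for 32 of 47 (68.1%, against 42.5%) in both. Past 1.5-fold lower, however, were 9 of 47 without PHA (19.1%, against 19.3% of all genes), namely PSMA6, PSMB5, PSMB8, PSMB10, PSMC3, PSMD11, PSMG1, PSMG3 and PSMG4. With PHA there were 7 of 47 (14.9%, against 17.8%), namely PSMA8, PSMB5, PSMB6, PSMB8, PSMB10, PSME3 and PSMG1. These shares were close to or below those of all genes, as was that of the 4 members past 1.5-fold lower in both comparisons, PSMB5, PSMB8, PSMB10 and PSMG1 (8.51%, against 13.2%). With PHA, however, PSMB8 and PSMG1 were close to the threshold and did not pass it when counts were scaled by TMM (-0.56 and -0.57) or by DESeq2 size factors (-0.55 and -0.56). PSMG1 also missed it with a pseudocount of 1. Without PHA, PSMG4 missed it with DESeq2 scaling (-0.57) and with the pseudocount of 1 (-0.40). No member was past 1.5-fold higher in either comparison, where 14.8% and 11.7% of all genes were. Past 2-fold lower were 2 members without PHA (against 8.65% of all genes) and 3 with PHA (against 8.00%), and none was past 2-fold higher (against 5.22% and 3.69%).

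On counts, the interval of the ratio lay wholly below 0 for 34 of 47 members without PHA (72.3%, against 38.7% of all genes) and for 35 of 47 with PHA (74.5%, against 38.2%). It lay wholly above 0 for 6 members without PHA (against 36.9% of all genes), namely PSMD2, PSMD3, PSMD6, PSMD9, PSME1 and PSME4, and for 8 with PHA (against 34.6%), namely PSMA4, PSMB3, PSMB9, PSMD2, PSMD5, PSMD9, PSME4 and PSMF1. Across the 47 members the log2 ratios of the 2 JQ1 comparisons had a Pearson r of 0.669 and a Spearman rho of 0.759, where all 11503 genes had 0.740 and 0.786. Both values over the members were thus a little below those over all genes, and neither was tested.

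**Figure D1:**
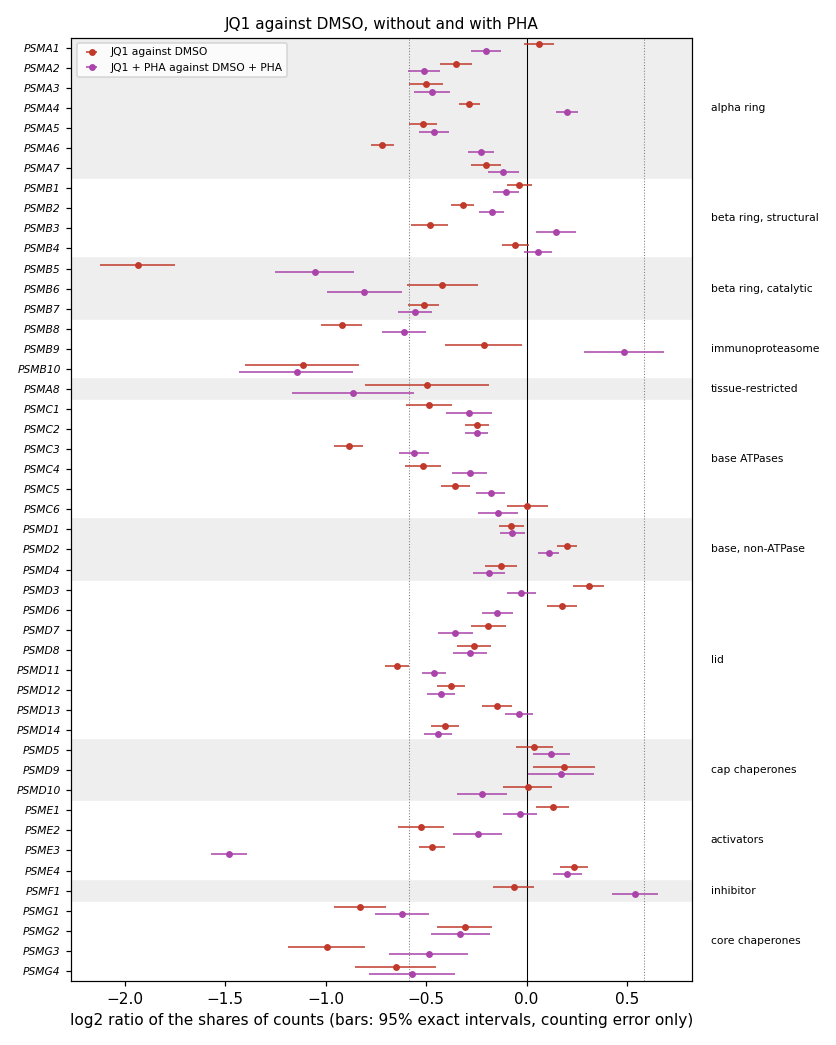
Log2 ratio of the shares of counts for JQ1 against DMSO (red) and JQ1 + PHA against DMSO + PHA (purple) for each of the 47 proteasome genes, grouped by role, with 95% exact intervals for counting error as bars and 1.5-fold as dotted lines. Most points lie left of 0, PSMB5 lies farthest left without PHA at -1.94, and PSME3 farthest left with PHA at -1.48.

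Without PHA the lowest ratio was that of PSMB5, in the catalytic core. PSMB5 (ENSG00000100804, GRCh38 chr14:23016543-23035230), which carries the chymotrypsin-like site and is the main target of proteasome-inhibitor drugs, had FPKM of 16.3 in DMSO, 4.26 in JQ1, 9.76 in DMSO + PHA and 4.696 in JQ1 + PHA, from counts of 1083, 296, 679 and 309. Both JQ1 libraries were below both DMSO libraries, and DMSO + PHA was lower than DMSO. The log2 ratio of counts was -1.94 (-2.13 to -1.75) for JQ1 against DMSO, 3.83-fold lower, and -1.06 (-1.25 to -0.86) with PHA, 2.08-fold lower, so that the ratio with PHA was higher by 0.88 (0.61 to 1.15) on the log2 scale. The 2 JQ1 libraries differed from each other by 0.14 (-0.09 to 0.38), an interval that includes 0, whereas DMSO + PHA against DMSO gave -0.74 (-0.88 to -0.60).

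PSMB6, with the caspase-like site, had FPKM of 12.4 in DMSO, 9.27 in JQ1, 13.3 in DMSO + PHA and 7.61 in JQ1 + PHA. Its ratio of counts was -0.42 (-0.60 to -0.24) in the absence of PHA and -0.81 (-0.99 to -0.62) in its presence. PSMB7, with the trypsin-like site, had FPKM of 66.9 in DMSO, 46.9 in JQ1, 61.2 in DMSO + PHA and 41.6 in JQ1 + PHA, which gave -0.51 (-0.59 to -0.43) and -0.56 (-0.64 to -0.47). For both genes, as for PSMB5, each JQ1 library was below each DMSO library, but the JQ1 ratio of PSMB6 was lower with PHA than without it, the reverse of PSMB5. Summed over the 3 constitutive catalytic genes, counts were 1.65-fold lower without PHA, log2 ratio -0.72 (-0.79 to -0.65), and 1.58-fold lower with PHA, -0.66 (-0.73 to -0.59).

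The immunoproteasome genes split. PSMB8 (ENSG00000204264, chr6:32840717-32844703), which replaces PSMB5, had FPKM of 37.01 in DMSO, 19.5 in JQ1, 29.1 in DMSO + PHA and 19.1 in JQ1 + PHA, from counts of 2146, 1185, 1767 and 1094. The log2 ratio of its counts with JQ1 was -0.92 (-1.02 to -0.82) without PHA, 1.89-fold lower, and -0.61 (-0.72 to -0.50) with PHA. PSMB10 (ENSG00000205220, chr16:67934502-67937087), which replaces PSMB7, had FPKM of 5.17 in DMSO, 2.39 in JQ1, 5.36 in DMSO + PHA and 2.42 in JQ1 + PHA, from counts of 321, 155, 348 and 149. Its ratios were -1.11 (-1.40 to -0.83) and -1.14 (-1.43 to -0.86). Both genes were lower in each JQ1 library than in each DMSO library, and PSMB10 was past 2-fold in both comparisons.

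PSMB9, which replaces PSMB6, behaved otherwise, with FPKM of 6.099 in DMSO, 5.26 in JQ1, 4.45 in DMSO + PHA and 6.23 in JQ1 + PHA from counts of 479, 432, 366 and 484. Its log2 ratio with JQ1 was -0.21 (-0.40 to -0.02) without PHA and 0.48 (0.28 to 0.68) with PHA, and JQ1 + PHA was the highest of its 4 libraries. PSMB8 and PSMB9 overlap each other in the MHC region and also the antisense gene PSMB8-AS1, which had counts of 147, 182, 134 and 108, and PSMB9 also overlaps TAP1, a peptide transporter subunit that had 600, 770, 570 and 714. TAP1 had more counts than PSMB9 in every library, and whether the counting used strand is not given in the sources used here, so the division of reads among these genes is uncertain. Over the 3 immunoproteasome genes the summed counts were 1.74-fold lower without PHA, -0.80 (-0.88 to -0.71), and 1.36-fold lower with PHA, -0.44 (-0.53 to -0.35).

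The balance between each immunoproteasome gene and the constitutive gene it replaces therefore moved differently for the 3 sites. Per kilobase of the canonical transcript, PSMB8 over PSMB5 was 1.84 in DMSO, 3.72 in JQ1, 2.42 in DMSO + PHA and 3.29 in JQ1 + PHA, so PSMB8 was the higher of the pair on this scale. Per kilobase of the union of exons the ratios were 0.882, 1.78, 1.16 and 1.58, so in DMSO the order of the pair depends on the length chosen. The ratio was higher with JQ1 by 1.01 (0.80 to 1.23) on the log2 scale without PHA and by 0.44 (0.22 to 0.67) with PHA. Both genes were lower with JQ1, PSMB5 by more. PSMB9 over PSMB6 was 0.645, 0.743, 0.438 and 1.07 in the same order, so its log2 change with JQ1 was 0.21 (-0.05 to 0.46) in the absence and 1.29 (1.02 to 1.56) in the presence of PHA. That ratio stayed below 1 in JQ1 + PHA on the other scales, at 0.818 in FPKM and 0.573 per kilobase of the union of exons. PSMB10 over PSMB7 was 0.105, 0.0691, 0.119 and 0.0791, and lay on the other side of 0, with changes of -0.60 (-0.89 to -0.31) and -0.59 (-0.88 to -0.30). The 3 pairs thus differed in sign and in their dependence on PHA.

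**Figure D2:**
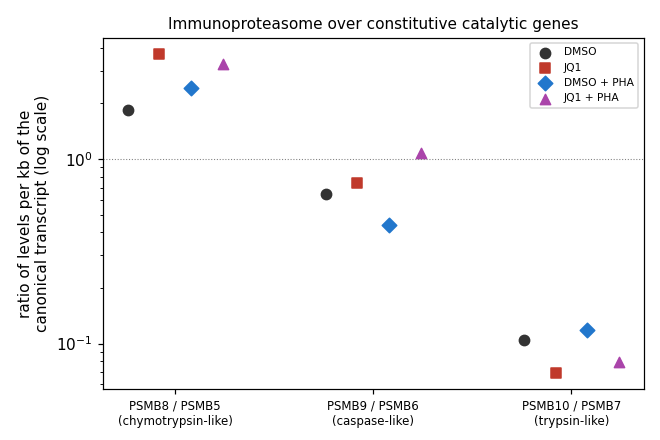
Ratio of the level of each immunoproteasome gene to the constitutive catalytic gene it replaces, per kilobase of the canonical transcript on a log axis, with 1 point per library. PSMB8 over PSMB5 lies above 1 in all libraries (1.84 to 3.72), PSMB10 over PSMB7 below 0.12 in all, and PSMB9 over PSMB6 passes 1 on this scale in JQ1 + PHA alone (1.07).

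Promoter letters are shown for the 3 members lowest with JQ1, ranked by the higher of their ratios in the 2 comparisons, and, for comparison, for PSMD9 and PSMD2, 2 of the 4 members above 0 in both. The other 2, PSME4 and PSMD5, are not shown because they had at most 44 bases outside annotated exons. Of the 48 members other than the pseudogenes, 42 had a window of 250 bases before to 50 after the start in the RefSeq table (GRCh38.p14). Each sequence is the longest stretch of the 250 bases before the start that lies in no exon of GENCODE 44, of at least 80 bases, read 5′ to 3′ on the gene's strand. Capitals mark exact matches, on either strand, of CCAAT (the CCAAT box), TGACNNNGC (the core of the antioxidant response element, which NRF factors bind), GGGCGG (the GC box) and CACGTG (the E-box), and adjacent or overlapping matches run together. The stretches are chr16:67936865-67937100 on the minus strand for PSMB10, chr14:23034901-23035111 on the minus strand for PSMB5, chr21:39183489-39183701 on the minus strand for PSMG1, chr12:121888644-121888731 on the plus strand for PSMD9 and chr3:184298991-184299197 on the plus strand for PSMD2.
PSMB10: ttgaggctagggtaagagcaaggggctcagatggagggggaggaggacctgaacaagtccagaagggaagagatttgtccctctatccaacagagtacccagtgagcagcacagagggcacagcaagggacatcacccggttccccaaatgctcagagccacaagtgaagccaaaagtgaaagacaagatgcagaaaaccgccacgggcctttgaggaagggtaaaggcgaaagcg
PSMB5: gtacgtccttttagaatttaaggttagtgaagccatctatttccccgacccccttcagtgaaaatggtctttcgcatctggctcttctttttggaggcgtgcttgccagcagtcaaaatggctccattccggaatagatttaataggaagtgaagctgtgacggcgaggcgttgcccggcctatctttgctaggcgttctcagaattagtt
PSMG1: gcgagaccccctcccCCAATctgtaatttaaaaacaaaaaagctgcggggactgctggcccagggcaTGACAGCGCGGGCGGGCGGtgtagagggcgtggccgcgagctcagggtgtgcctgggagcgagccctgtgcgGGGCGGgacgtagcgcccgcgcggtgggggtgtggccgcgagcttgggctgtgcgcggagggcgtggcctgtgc
PSMD9: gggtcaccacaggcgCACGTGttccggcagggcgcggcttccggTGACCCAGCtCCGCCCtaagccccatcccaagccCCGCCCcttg
PSMD2: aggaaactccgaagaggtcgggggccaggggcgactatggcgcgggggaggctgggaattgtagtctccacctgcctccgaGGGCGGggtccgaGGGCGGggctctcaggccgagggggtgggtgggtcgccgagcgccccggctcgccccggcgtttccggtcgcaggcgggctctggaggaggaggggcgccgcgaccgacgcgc

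The stretches of PSMB10 and PSMB5, the members lowest with JQ1, held no match. Those of PSMG1, which was also lower with JQ1, and of PSMD9 and PSMD2 held GC boxes. For the GC box the groups did not differ in this way. GGGCGG was in 7 of 10 windows (70.0%) of members past 1.5-fold lower in a JQ1 comparison. It was in 3 of 4 windows (75.0%) of members above 0 in both. The other letters were less even between these groups. TGACNNNGC was in 1 of 10 and 3 of 4 windows, CCAAT in 3 of 10 and 0 of 4, and CACGTG in 1 of 10 and 1 of 4. With only 4 windows on the higher side, no such difference was tested. Over the whole windows, CCAAT was found in 18 of 42 members (42.9%, against 34.6% of all 35116 windows), TGACNNNGC in 12 (28.6%, against 13.3%), GGGCGG in 29 (69.0%, against 44.95%) and CACGTG in 3 (7.14%, against 7.26%). Each member had 1 window, the nearest to its canonical start, whereas the 35116 windows were limited neither to 1 per gene nor to expressed genes. The shares are therefore of unlike sets. A match is a description of the letters and no evidence of binding. No match says only that the letters are not in the window.

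The alpha ring was lower as a whole. Of its 7 genes 6 had a ratio below 0 without PHA and 6 with PHA, and the summed counts gave log2 ratios of -0.38 (-0.41 to -0.36) and -0.19 (-0.22 to -0.16). PSMA6 was the member of the ring past 1.5-fold without PHA, with FPKM of 31.3 in DMSO, 19.01 in JQ1, 20.5 in DMSO + PHA and 17.5 in JQ1 + PHA, where the DMSO library stood above the other 3. Its log2 ratios of counts were -0.72 (-0.78 to -0.66) without PHA, -0.23 (-0.29 to -0.16) with PHA and -0.61 (-0.67 to -0.56) for DMSO + PHA against DMSO. PSMA7, the highest of the ring by FPKM, had 56.3 in DMSO, 48.9 in JQ1, 51.3 in DMSO + PHA and 47.4 in JQ1 + PHA. PSMA1, the lowest, had 17.6 in DMSO, 18.4 in JQ1, 20.8 in DMSO + PHA and 18.1 in JQ1 + PHA.

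Members of the ring did not all follow the same order. PSMA2, PSMA3 and PSMA5 were lower in both comparisons, with ratios of -0.35 and -0.51, -0.50 and -0.47, and -0.52 and -0.46. PSMA4 had -0.29 (-0.34 to -0.23) without PHA and 0.20 (0.15 to 0.25) with PHA. PSMA1 had 0.06 (-0.02 to 0.14) and -0.20 (-0.28 to -0.13). These ratios show PSMA4 and PSMA1 on opposite sides of 0 in the 2 comparisons, although the interval of PSMA1 without PHA includes 0.

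The 4 structural beta genes, which close the ring without a proteolytic site, had summed ratios nearer to 0 than the other core groups. Their summed counts gave -0.19 (-0.23 to -0.16) without PHA and -0.06 (-0.09 to -0.02) with PHA, and the latter became 0.00 when counts were scaled by DESeq2 size factors, so that its direction depends on the scaling. PSMB1, the member highest by FPKM, had 86.3 in DMSO, 84.1 in JQ1, 83.00 in DMSO + PHA and 77.3 in JQ1 + PHA. PSMB4, the lowest of the group, had 26.5 in DMSO, 25.5 in JQ1, 24.8 in DMSO + PHA and 25.7 in JQ1 + PHA. No interval was clear of 0 for PSMB4 in either comparison, nor for PSMB1 without PHA. PSMB2 was lower in both, -0.32 (-0.38 to -0.26) and -0.17 (-0.24 to -0.11), and PSMB3 went from -0.48 (-0.58 to -0.39) without PHA to 0.15 (0.05 to 0.24) with PHA. The DMSO library was the highest of the 4 for PSMB3, with FPKM of 58.9 in DMSO, 42.2 in JQ1, 41.8 in DMSO + PHA and 46.3 in JQ1 + PHA.

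The tissue-restricted core genes were low. PSMA8, an alpha subunit of the testis proteasome, had FPKM of 3.77 in DMSO, 2.67 in JQ1, 4.64 in DMSO + PHA and 2.55 in JQ1 + PHA, from counts of 209, 155, 269 and 140. JQ1 against DMSO gave -0.50 (-0.81 to -0.19) and JQ1 + PHA against DMSO + PHA gave -0.86 (-1.17 to -0.56). It overlaps the pseudogene DHFRP1, which had more counts, 1245, 1792, 1153 and 1773, and which was higher with JQ1 where PSMA8 was lower. PSMB11, the catalytic subunit of the thymus proteasome, had counts of 0, 0, 0 and 1, and the pseudogenes PSMA3P and PSMD12P had 1, 0, 0 and 0 and 2, 4, 2 and 0, and for these 3 no fold is given.

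**Figure D3:**
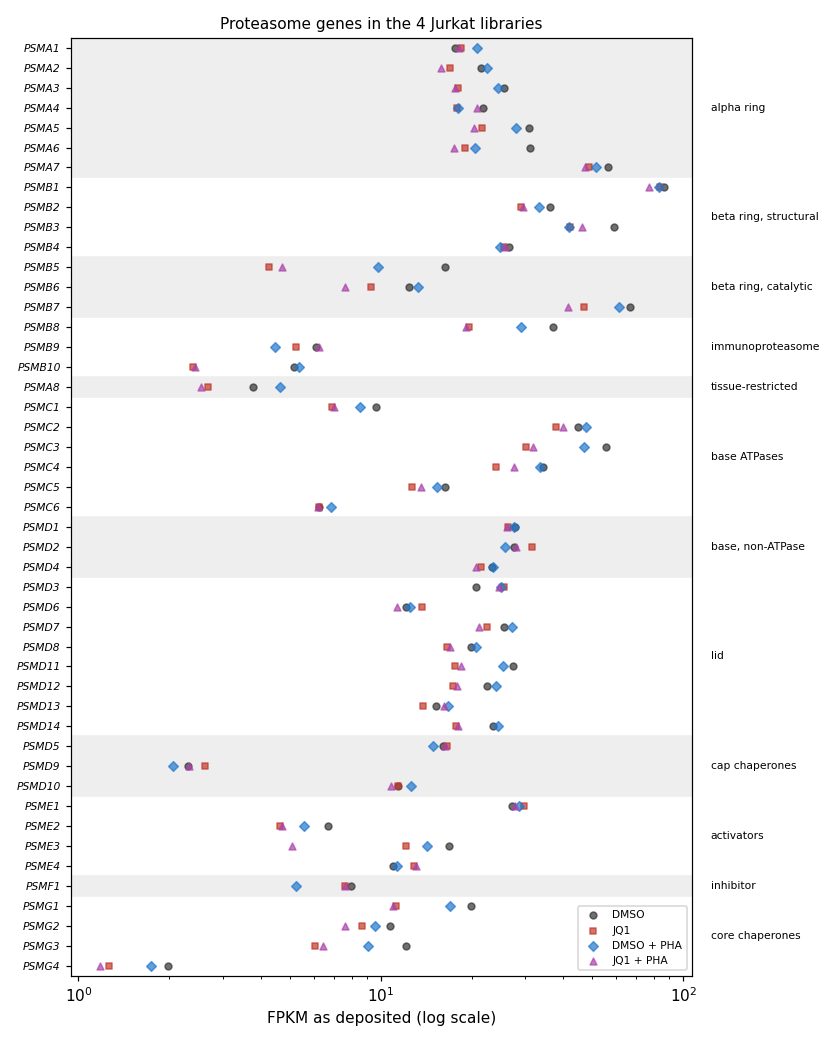
FPKM of the 47 proteasome genes in the 4 libraries on a log axis, grouped by role, with 1 point per library. The libraries of JQ1 and JQ1 + PHA lie left of both DMSO libraries for the catalytic genes PSMB5, PSMB6 and PSMB7 and for PSMG1 to PSMG4, while PSMB1 stays between 77.3 and 86.3 in all.

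In the cap, the ATPases of the base were lower and the non-ATPase subunits hardly differed. The 6 ATPases, which form the ring that unfolds substrates, gave summed log2 ratios of -0.43 (-0.46 to -0.40) for JQ1 against DMSO and -0.29 (-0.32 to -0.26) with PHA added to both, and 5 of 6 without PHA and 6 of 6 with PHA were below 0. PSMC3 differed most, with FPKM of 55.7 in DMSO, 30.2 in JQ1, 46.99 in DMSO + PHA and 31.9 in JQ1 + PHA. Its ratios were -0.88 (-0.96 to -0.81), 1.85-fold lower, and -0.56 (-0.63 to -0.48). PSMC2, the highest of the ATPases by mean FPKM, had 45.03 in DMSO, 37.9 in JQ1, 47.5 in DMSO + PHA and 39.99 in JQ1 + PHA. PSMC6, the lowest, had 6.22 in DMSO, 6.23 in JQ1, 6.82 in DMSO + PHA and 6.18 in JQ1 + PHA. For PSMC2 both JQ1 libraries lay below both DMSO libraries, and for PSMC6 the ratio without PHA was 0.00 (-0.10 to 0.10), at 0.

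PSMC4 and PSMC5 lay between, with ratios of -0.52 (-0.61 to -0.43) and -0.28 (-0.37 to -0.20) for the former and -0.36 (-0.43 to -0.28) and -0.18 (-0.25 to -0.10) for the latter. PSMC1 gave -0.49 (-0.60 to -0.37) and -0.29 (-0.40 to -0.17), but its counts are uncertain. A processed copy, PSMC1P1 (ENSG00000241506, GRCh38 chr3:68635705-68637024), had counts of 4836, 3471, 4824 and 3109, more than the 1481, 1106, 1373 and 1065 of PSMC1 itself. The 12 listed copies together had between 294.0% and 353.2% of the counts of PSMC1. Summed with its copies, PSMC1 gave -0.53 (-0.58 to -0.47) and -0.49 (-0.55 to -0.43), so that the values with and without PHA came close to each other. Among the other 11 members with listed copies, those of PSMA6 had between 5.23% and 7.37% of its counts, and those of the other 10 at most 1.09%.

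The 3 non-ATPase subunits of the base, which include the ubiquitin receptors, gave summed log2 ratios of 0.05 (0.02 to 0.08) for JQ1 against DMSO and -0.01 (-0.04 to 0.03) with PHA added to both, where the latter became 0.04 with TMM and 0.05 with DESeq2 scaling. PSMD2, a scaffold of the base and the highest of them by FPKM, had 27.5 in DMSO, 31.6 in JQ1, 25.8 in DMSO + PHA and 27.9 in JQ1 + PHA. Its ratios of 0.20 (0.15 to 0.25) and 0.11 (0.06 to 0.16) were above 0 in both comparisons. PSMD4, a ubiquitin receptor and the lowest, had 23.4 in DMSO, 21.4 in JQ1, 23.5 in DMSO + PHA and 20.6 in JQ1 + PHA, with ratios of -0.13 (-0.21 to -0.05) and -0.19 (-0.27 to -0.11). PSMD1, the other scaffold, had -0.08 (-0.14 to -0.01) and -0.07 (-0.13 to -0.01). No member of this group came near 1.5-fold.

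The lid, which holds the enzyme that removes ubiquitin chains, was lower in sum, -0.23 (-0.26 to -0.20) without PHA and -0.28 (-0.31 to -0.26) with PHA. PSMD11 was the lid member past 1.5-fold without PHA, with FPKM of 27.4 in DMSO, 17.5 in JQ1, 25.4 in DMSO + PHA and 18.4 in JQ1 + PHA. It gave ratios of -0.64 (-0.71 to -0.59) and -0.46 (-0.52 to -0.40). PSMD14, the deubiquitinase of the lid, had -0.41 (-0.48 to -0.34) and -0.44 (-0.51 to -0.37), and PSMD12 had -0.38 (-0.45 to -0.31) and -0.43 (-0.50 to -0.36). These 3 were lower in both comparisons, whereas PSMD3 and PSMD6 were higher with JQ1 in the absence of PHA.

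PSMD3 had FPKM of 20.7 in DMSO, 25.6 in JQ1, 24.96 in DMSO + PHA and 24.5 in JQ1 + PHA, where the DMSO library was the lowest and the other 3 lay together. Its ratios were 0.31 (0.23 to 0.39) and -0.03 (-0.10 to 0.05). PSMD6, the lowest of the lid by FPKM, had 12.1 in DMSO, 13.6 in JQ1, 12.5 in DMSO + PHA and 11.3 in JQ1 + PHA. JQ1 gave 0.18 (0.10 to 0.25) and -0.15 (-0.22 to -0.07). PSMD7, the highest by mean FPKM, had 25.6 in DMSO, 22.4 in JQ1, 27.1 in DMSO + PHA and 21.2 in JQ1 + PHA, and was lower in both comparisons, -0.19 (-0.28 to -0.10) and -0.35 (-0.44 to -0.27). PSMD8 and PSMD13 were lower by less, with -0.26 and -0.28 for PSMD8 and -0.15 and -0.04 for PSMD13, whose interval with PHA includes 0.

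Assembly factors of the core were lower, while those of the cap were not in sum. PSMG1 to PSMG4 are the chaperones that build the alpha ring, and all 4 were lower in both comparisons. Their summed counts were 1.59-fold lower in the absence of PHA, -0.67 (-0.75 to -0.59), and 1.41-fold lower with PHA, -0.50 (-0.58 to -0.42). PSMG1 had FPKM of 19.9 in DMSO, 11.2 in JQ1, 16.9 in DMSO + PHA and 10.99 in JQ1 + PHA. Its ratios of -0.83 (-0.96 to -0.70) and -0.62 (-0.76 to -0.48) were past 1.5-fold in both, the latter not with TMM or DESeq2 scaling. PSMG3 had FPKM of 12.1 in DMSO, 6.08 in JQ1, 9.05 in DMSO + PHA and 6.46 in JQ1 + PHA, with ratios of -0.995 (-1.19 to -0.81) and -0.49 (-0.69 to -0.29). Both JQ1 libraries lay below both DMSO libraries for each, and those of PSMG3 held 351 and 353 counts.

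PSMG4, the lowest of the 4 by FPKM, had 1.98 in DMSO, 1.26 in JQ1, 1.74 in DMSO + PHA and 1.17 in JQ1 + PHA. Counts of PSMG4 gave ratios of -0.65 (-0.85 to -0.45) and -0.57 (-0.78 to -0.36). PSMG2 had FPKM of 10.7 in DMSO, 8.68 in JQ1, 9.59 in DMSO + PHA and 7.63 in JQ1 + PHA, with -0.31 (-0.45 to -0.17) and -0.33 (-0.48 to -0.18). PSMG3 overlaps PSMG3-AS1, which had counts of 224, 434, 255 and 350 and was higher with JQ1. PSMG4 overlaps SLC22A23 (counts of 206, 327, 204 and 384) and PSMG2 overlaps CEP76 (551, 807, 543 and 763), both also higher with JQ1. How reads divide between these genes is uncertain, and with it the summed ratios of the core chaperones. By contrast the chaperones of the cap, PSMD5, PSMD9 and PSMD10, gave summed ratios of 0.06 (-0.01 to 0.12) and 0.03 (-0.04 to 0.09), which became 0.10 and 0.09 with DESeq2 scaling. PSMD5, the highest of them by FPKM, had 16.1 in DMSO, 16.5 in JQ1, 14.9 in DMSO + PHA and 16.2 in JQ1 + PHA. Its ratios were 0.04 (-0.05 to 0.13) and 0.12 (0.03 to 0.22). PSMD5 overlaps PSMD5-AS1, which had counts of 1283, 2081, 1537 and 2237 and was higher with JQ1. The division of reads between these genes is uncertain, and with it the summed ratios of the cap chaperones. PSMD9, the lowest, had 2.305 in DMSO, 2.62 in JQ1, 2.06 in DMSO + PHA and 2.31 in JQ1 + PHA, with ratios of 0.18 (0.03 to 0.34) and 0.17 (0.01 to 0.33). PSMD10 had 0.00 (-0.12 to 0.13) without PHA and -0.22 (-0.34 to -0.10) with PHA.

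**Figure D4:**
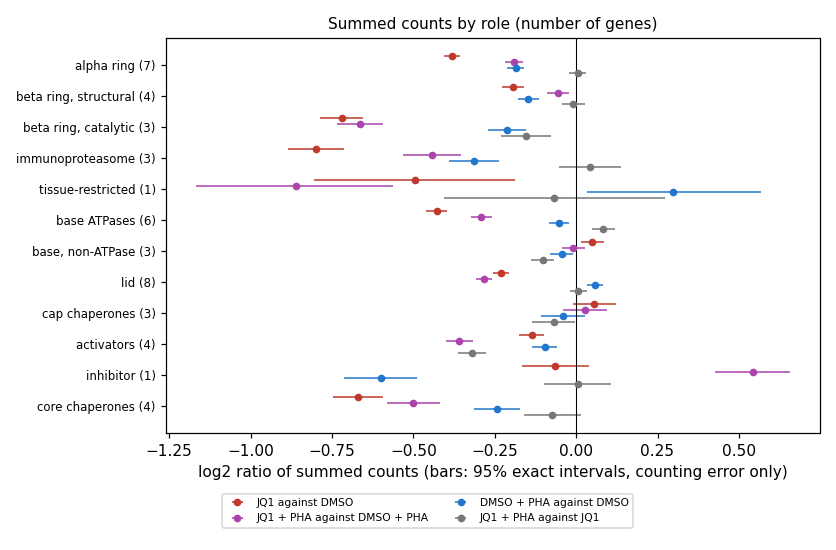
Log2 ratio of the summed counts of each group of proteasome genes in the 4 comparisons, with 95% exact intervals for counting error as bars and the number of genes in brackets. The catalytic, immunoproteasome and core-chaperone groups lie farthest left of the groups with several genes in JQ1 against DMSO (-0.72, -0.80 and -0.67), and the cap chaperones lie at 0.06.

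Among the alternative activators, PSME3 stood apart. PSME3 (ENSG00000131467, chr17:42824385-42843758), the nuclear activator, had FPKM of 16.8 in DMSO, 12.1 in JQ1, 14.2 in DMSO + PHA and 5.09 in JQ1 + PHA, from counts of 4607, 3476, 4089 and 1384. JQ1 + PHA was the lowest library by far and the other 3 lay closer together. The log2 ratio of counts was -0.47 (-0.53 to -0.41) without PHA, -1.48 (-1.57 to -1.39) with PHA, which was 2.79-fold lower, and -1.25 (-1.34 to -1.16) for JQ1 + PHA against JQ1. PSME3 overlaps BECN1, which had counts of 1233, 1748, 1495 and 1423. The log2 ratio of BECN1 with JQ1 was 0.44 without PHA and 0.01 with PHA, and it had fewer counts in JQ1 + PHA than in JQ1.

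PSME1 and PSME2, which form the interferon-inducible activator ring together, parted. PSME1 had FPKM of 27.3 in DMSO, 29.8 in JQ1, 28.5 in DMSO + PHA and 27.9 in JQ1 + PHA, with ratios of 0.13 (0.05 to 0.21) and -0.03 (-0.12 to 0.05). PSME2 had 6.67 in DMSO, 4.63 in JQ1, 5.59 in DMSO + PHA and 4.72 in JQ1 + PHA, with -0.53 (-0.64 to -0.41) and -0.24 (-0.36 to -0.12). PSME4, an activator linked to chromatin and DNA repair, had 10.9 in DMSO, 12.9 in JQ1, 11.3 in DMSO + PHA and 13.1 in JQ1 + PHA, and was above 0 in both comparisons, 0.24 (0.16 to 0.31) and 0.20 (0.13 to 0.27). Both JQ1 libraries of PSME4 lay above both DMSO libraries, the reverse of PSME2. PSMF1, an inhibitor of the core, had FPKM of 7.95 in DMSO, 7.61 in JQ1, 5.24 in DMSO + PHA and 7.63 in JQ1 + PHA, with DMSO + PHA below the other 3. The JQ1 ratio was -0.06 (-0.17 to 0.04) in the absence and 0.54 (0.43 to 0.66) in the presence of PHA.

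The JQ1 ratio with PHA minus that without it was past 1.5-fold lower with PHA for 1 of 47 members, PSME3 (against 7.27% of all genes), with a difference of -1.01 (-1.12 to -0.90). It was past 1.5-fold higher with PHA for 4 of 47 (against 5.25%), namely PSMB5, 0.88 (0.61 to 1.15), PSMB9, 0.70 (0.43 to 0.97), PSMB3, 0.63 (0.50 to 0.76), and PSMF1, 0.61 (0.45 to 0.76). For these 4 the ratio of DMSO + PHA to DMSO was -0.74, -0.45, -0.49 and -0.60. Each was thus lower in DMSO + PHA, the denominator with PHA, than in DMSO, the denominator without it. For PSMF1 the DMSO + PHA library stood below all others, whereas for PSMB3 the DMSO library stood above all others.

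With PHA the summed and median ratios lay nearer to 0 than with JQ1. DMSO + PHA against DMSO shares the DMSO library with JQ1 against DMSO, and JQ1 + PHA against JQ1 shares libraries with both JQ1 comparisons, so these values are not independent of those above. The summed log2 ratio was -0.09 (-0.10 to -0.08) for DMSO + PHA against DMSO and -0.04 (-0.05 to -0.02) for JQ1 + PHA against JQ1, and the medians were -0.09 and -0.02, where those of all genes were -0.01 and 0.00. A ratio below 0 was found for 29 of 47 members (61.7%, against 51.1% of all genes) and for 26 of 47 (55.3%, against 50.9%). Past 1.5-fold lower were 3 members without JQ1 (against 3.83% of all genes), namely PSMA6, PSMB5 and PSMF1, and 1 with JQ1 (against 3.05%), PSME3, and none was past 1.5-fold higher (against 5.59% and 2.58%).

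By role, PHA without JQ1 gave summed ratios of -0.31 (-0.39 to -0.24) for the immunoproteasome genes, -0.21 (-0.27 to -0.15) for the catalytic genes, -0.24 (-0.31 to -0.17) for the core chaperones and -0.19 (-0.21 to -0.16) for the alpha ring. The lid was on the other side, 0.06 (0.03 to 0.08). In JQ1-treated cells the same groups gave 0.04 (-0.05 to 0.14), -0.15 (-0.23 to -0.08), -0.07 (-0.16 to 0.01), 0.00 (-0.02 to 0.03) and 0.01 (-0.02 to 0.03). Of these 5 intervals, that of the catalytic genes was clear of 0. The alternative activators gave -0.32 (-0.36 to -0.28) there, with PSME3 among them, the ATPases 0.08 (0.05 to 0.12) and the non-ATPase subunits of the base -0.10 (-0.14 to -0.07).

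Levels were also compared between genes, for which a length is needed. In the assembled core the 14 constitutive subunits are present in equal number, but their transcripts were not. In FPKM the highest was 6.96 times the lowest in DMSO (PSMB1 at 86.3 and PSMB6 at 12.4), 19.8 times in JQ1, 8.50 times in DMSO + PHA and 16.5 times in JQ1 + PHA, with PSMB5 the lowest in the last 3 libraries. The SD of the log2 FPKM over the 14 genes was 0.83, 1.07, 0.85 and 1.06, higher in both JQ1 libraries.

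The length behind FPKM matters here. The length implied by the counts and FPKM was at the median 3.29 times the canonical transcript of GENCODE 44 (1.28 to 17.5 times over the 47 members), 1.62 times the union of exons, and 1.002 times the sum of all distinct exons, from which 31 of 47 members differed by at most 10%. CPM (counts divided by the library total and rescaled) per kilobase of the canonical transcript gave ratios of the highest to the lowest of 8.41, 16.7, 7.18 and 13.9, and per kilobase of the union of exons 5.52, 9.94, 4.99 and 8.29. On the canonical scale PSMA6 was the highest in DMSO (326.6) and PSMB1 in the other 3, while PSMB5 was the lowest in JQ1, in DMSO + PHA and in JQ1 + PHA on this scale too. The order of genes thus depends on the length chosen, and the wider spread in both JQ1 libraries was found on all 3 scales. Highest and lowest members of the other roles, named by FPKM, share this limit. PSMG4, the lowest core chaperone by FPKM, averaged 26.9 CPM per kilobase of the canonical transcript, where PSMG3 averaged 17.3. Likewise PSMC6, the lowest ATPase by FPKM, averaged 38.8 on that scale and PSMC1 14.9.

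**Figure D5:**
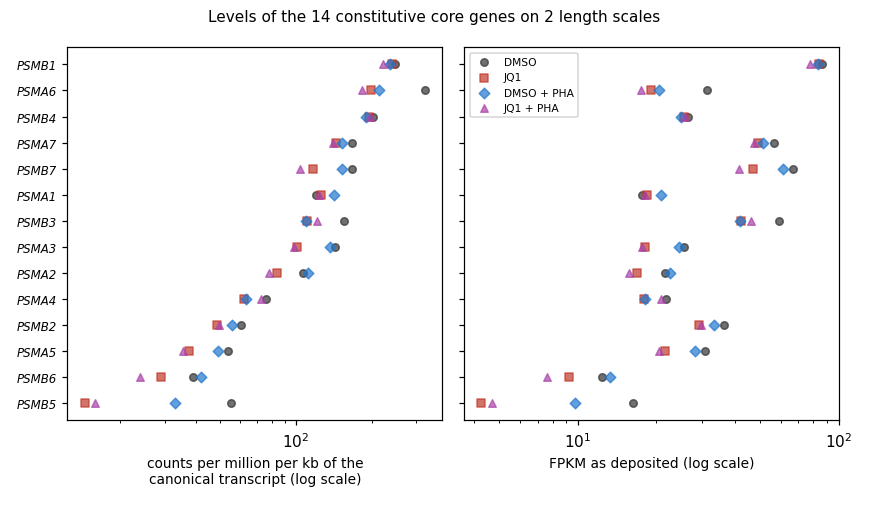
Levels of the 14 constitutive core genes in each library, as CPM per kilobase of the canonical transcript (left) and as FPKM as deposited (right), both on log axes, with 1 point per library. PSMB5 and PSMB6 have the 2 lowest means over the libraries on both scales, and PSMA6 is the highest in DMSO on the left (326.6) but not on the right (31.3).

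Reads of overlapping genes may be divided wrongly, since the strand setting of the counting is not given in the sources used here. PSMC2 overlaps DNAJC2 (counts of 2445, 1021, 2464 and 967), PSMC5 overlaps FTSJ3 (4050, 2857, 4196 and 2773) and PSMA3 overlaps PSMA3-AS1 (1538, 3522, 1621 and 3304). PSMA6 overlaps RP11-561B11.2 (786, 465, 575 and 446) and PSMB10 overlaps CTC-479C5.12 (73, 43, 130 and 42). PSMA2 overlaps MRPL32 (1062, 716, 1066 and 632) and PSMC1 overlaps NRDE2 (1076, 1441, 1254 and 1386). Not every overlap is listed here. No gene with over 50 counts overlapped PSMB5, PSMC3, PSMG1 or PSMD11.

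The genes around the proteasome were read from lists of its other subunits, cofactors and regulators. Of 50 listed genes 47 passed the filter, of which 8 were past 1.5-fold lower and 4 higher without PHA, and 7 lower and 2 higher with PHA, with medians of -0.05 and -0.07. Past 1.5-fold lower among all genes were 19.3% and 17.8%, and higher 14.8% and 11.7%. The 4 subunits and assembly factors outside the PSM names had medians of -0.31 and -0.32, near those of the members. POMP, the maturation factor of the core, had FPKM of 79.1 in DMSO, 76.4 in JQ1, 110.5 in DMSO + PHA and 65.9 in JQ1 + PHA, the highest with PHA alone, with -0.05 (-0.14 to 0.04) for JQ1 against DMSO and -0.74 (-0.83 to -0.66) for JQ1 + PHA against DMSO + PHA. ADRM1, a ubiquitin receptor of the cap, had 29.98 in DMSO, 23.9 in JQ1, 31.95 in DMSO + PHA and 27.96 in JQ1 + PHA, with -0.33 (-0.44 to -0.22) and -0.19 (-0.30 to -0.09).

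The regulators of subunit genes did not move together. NFE2L1, which raises subunit genes when the proteasome is impaired, had FPKM of 6.88 in DMSO, 7.502 in JQ1, 5.498 in DMSO + PHA and 7.77 in JQ1 + PHA, with ratios of 0.13 (0.05 to 0.20) and 0.50 (0.43 to 0.57). NFE2L2, its relative in the oxidative stress response, had 2.48 in DMSO, 3.57 in JQ1, 2.35 in DMSO + PHA and 1.79 in JQ1 + PHA, with 0.53 (0.37 to 0.68) and -0.39 (-0.58 to -0.20). NFE2L3, a further relative, had 4.75 in DMSO, 2.39 in JQ1, 3.63 in DMSO + PHA and 2.06 in JQ1 + PHA, with -0.99 (-1.20 to -0.78) and -0.82 (-1.05 to -0.59). NFE2L1 was thus higher and NFE2L3 lower with JQ1 in both comparisons. MAFG, a small MAF protein with which these factors pair on DNA, had 6.87 in DMSO, 2.12 in JQ1, 3.73 in DMSO + PHA and 1.46 in JQ1 + PHA, with -1.69 (-1.88 to -1.50) and -1.35 (-1.59 to -1.11). MAFF, another, held counts of 24, 15, 121 and 5, below a mean FPKM of 1, with -4.52 (-6.17 to -3.25) with PHA. Of the 7 genes of this list that passed the filter, 4 were past 1.5-fold lower without PHA and 3 with PHA, and none was past 1.5-fold higher, where 19.3% and 17.8% of all genes were lower and 14.8% and 11.7% higher.

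The cofactor ECPAS, listed as KIAA0368 in the files and a scaffold that holds core and cap together, had FPKM of 8.19 in DMSO, 3.54 in JQ1, 8.33 in DMSO + PHA and 3.59 in JQ1 + PHA, with ratios of -1.21 (-1.34 to -1.08) and -1.21 (-1.34 to -1.09). In the list of interferon and peptide-loading genes, 2 of the 7 that passed were past 1.5-fold higher without PHA (against 14.8% of all genes) and 1 with PHA (against 11.7%), and none was lower (against 19.3% and 17.8%). B2M, the light chain of MHC class I, had 25.4 in DMSO, 43.7 in JQ1, 18.5 in DMSO + PHA and 39.6 in JQ1 + PHA, with 0.78 (0.74 to 0.83) and 1.10 (1.05 to 1.15), so it was higher with JQ1 where PSMB8 and PSMB10 were lower. NLRC5, an activator of MHC class I genes, stayed below a mean FPKM of 1 with counts of 207, 100, 422 and 183, and gave -1.11 (-1.47 to -0.76) and -1.13 (-1.38 to -0.87). The other lists had medians of -0.17 and -0.04 for proteasome-bound enzymes and cofactors, -0.19 and -0.17 for ubiquitin shuttle receptors, -0.08 and 0.13 for ubiquitin genes and activating enzymes, and 0.25 and 0.03 for the segregase and its cofactors, without and with PHA.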

How the data were processed

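The series holds RNA-seq of Jurkat T cells in 4 conditions, each with 1 library. Per the labels and the paper's methods, the authors aligned reads to GRCh38 with Hisat2 2.0.4, and the submitters' processing notes also name TopHat2 2.0.9 and Cufflinks 2.1.1. The deposited counts are raw reads per gene, and the deposited FPKM are those counts scaled by the authors for a gene length and the library total. The counting program, its treatment of strand and of reads with several alignments, and the annotation release are not given in the sources used here. The labels name a VAHTS Universal V6 library kit, whereas the paper's methods describe a stranded mRNA kit.

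The members, their roles and the wider lists were chosen with earlier results of these data known. Log2 ratios of FPKM used a pseudocount of 0.1, for genes whose mean FPKM reached 1, and calls past 1.5-fold and 2-fold were made on them. For single genes and for summed counts, ratios of the shares of counts had 95% exact (Clopper-Pearson) intervals, and shares of a library had Wilson intervals. The interval of a difference of ratios came from the Poisson variance of its 4 counts. Reads are not independent molecules, so intervals cover counting error only. At these depths 3 counts, the floor below which no fold is given, were 0.152 to 0.161 CPM. The ratio of counts of single genes, its interval and calls past 1.5-fold on it were tested on simulated Poisson counts, which hold counting error alone. The other steps were not simulated.

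Values in every library are given for the catalytic and immunoproteasome genes, the activators, members past 1.5-fold in any comparison, the highest and lowest member of each role by mean FPKM, and members with 3 counts or fewer. Of the wider lists they are given for POMP, ADRM1, NFE2L1, NFE2L2 and NFE2L3 and for genes past 2-fold in a JQ1 comparison. Members and list genes shown beyond this rule, PSMB3 and PSMD3 among them, were picked after their values were seen. Canonical transcripts and exons came from GENCODE 44. Copies were the genes in the deposited data named by the symbol of a member followed by P, with or without a number. Alternatives were another pseudocount, other filters, a 2-fold threshold, ratios centred on the median gene, edgeR TMM and DESeq2 scaling factors, and totals without mitochondrial genes. Computations ran in Python 3.11.15 with pandas 2.3.3, numpy 2.4.6 and scipy 1.17.1, and plots in matplotlib 3.10.9. Scaling factors alone were taken from edgeR 4.0.16 and DESeq2 1.42.0, run in R 4.3.3.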

Additional observations from a re-analysis of the deposited data

Results flagged for a closer look

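For 4 proteasome genes the log2 JQ1 ratio of counts lay on opposite sides of 0 without and with PHA, with both counting intervals clear of 0. PSMB9, an immunoproteasome subunit, went from -0.21 (95% interval -0.40 to -0.02) without PHA to 0.48 (0.28 to 0.68) with PHA, a difference of 0.70. PSMB3, a structural beta subunit, went from -0.48 (-0.58 to -0.39) to 0.15 (0.05 to 0.24), a difference of 0.63. PSMA4, of the alpha ring, went from -0.29 (-0.34 to -0.23) to 0.20 (0.15 to 0.25), a difference of 0.49. PSMD6, of the lid, moved the other way, from 0.18 (0.10 to 0.25) to -0.15 (-0.22 to -0.07), a difference of -0.32. With 1 library per condition the difference between the comparisons was not tested for any of the 4, and the intervals leave out all variation between cultures.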

How the results depend on the processing

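No paired analysis was possible because each condition had 1 library, so that the groups share fewer than 2 replicate numbers, and for the same reason no library could be left out. The members' median log2 ratio kept its sign under all alternatives run, between -0.32 and -0.27 for JQ1 against DMSO, -0.24 and -0.18 for JQ1 + PHA against DMSO + PHA, -0.10 and -0.08 for DMSO + PHA against DMSO, and -0.02 and -0.01 for JQ1 + PHA against JQ1. Of the counts of members past 1.5-fold, 67 of 72 were within 1.5 times the value reported. That share says little about stability, since every reported count past 1.5-fold higher was 0. In addition, 1 alternative left out the 2 pseudogenes, which had missed the filter, so it could change no count. For JQ1 + PHA against DMSO + PHA, 5 rather than 7 were lower with TMM or DESeq2 scaling, without PSMB8 and PSMG1. With a threshold of 2-fold, 2 members were lower for JQ1 against DMSO, 3 for JQ1 + PHA against DMSO + PHA and 0 for DMSO + PHA against DMSO. With no filter on low values, 2 rather than 1 were past 1.5-fold lower for JQ1 + PHA against JQ1, since the pseudogene PSMD12P then entered. With DESeq2 scaling 1 rather than 0 was past 1.5-fold higher for JQ1 + PHA against DMSO + PHA, PSMF1 at 0.59. A pseudocount of 1 moved 4 ratios of single members, such as PSMB5 in JQ1 against DMSO, from -1.91 to -1.72. Of the summed ratios of a role 18 moved by more than the half-width of their counting interval and 126 did not, and all 8 ratios of the highest to the lowest core gene moved with the length scale. Chosen after seeing the data were the other length scales, the sum of PSMC1 with its copies and the removal of the pseudogenes. Depth was no limit for most members, but PSMB10 had as few as 149 counts and PSMA8 140.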
